A study of Mus musculus with 4 samples.

Results

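Microexons are exons of 3 to 27 nt, and the cassette microexons of the mouse brain were followed here through 4 RNAseq libraries of *Ptbp2* mutant and control brain. The deposited tables held 456 such exons among 9319 cassette exons, after 1 trio (an exon with its upstream and downstream neighbor) had been kept for each middle exon. Of the 456 microexons, 354 (77.6%) had at least 20 junction reads in both libraries of at least 1 stage and are described below. At E18, 335 of them passed this minimum, and at P1, 343 did, with 324 passing at both stages. The other 102 were too thinly covered at both stages, and 45 of these had no junction read in any library.

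Microexons are spliced into mRNA mostly in neurons, where they insert a few amino acids into a protein, often at the surface of a domain, and so change how it binds its partners. They are too short to hold many splicing enhancers, and their inclusion depends on proteins that bind the introns beside them. The polypyrimidine tract binding proteins PTBP1 and PTBP2 bind pyrimidine-rich RNA and repress many neuronal exons, while factors such as SRRM4 promote the inclusion of microexons. PTBP2 is made in young neurons and declines as they mature.

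PSI (percent spliced in) is, in percent, how much of a gene's transcripts carry the middle exon, as SpliceTrap estimated it in the deposited tables. The first comparison was of whole brain at E18 from *Ptbp2* NesKO embryos, in which Nestin-Cre removes floxed *Ptbp2* in the nervous system, with WT brain, each library from 2 brains. The second was of cortex at P1 from *Ptbp2* EmxKO animals, in which Emx-Cre acts in the forebrain projection lineage, with cortex labelled WT from littermates. All animals were on the mixed background that the labels spell C56Bl/6:129S2. Each group has 1 library, and the P1 libraries were strand specific while the E18 libraries were not. Stage, tissue, Cre line and library protocol therefore differ together and cannot be told apart.

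The libraries held 48367448 reads on distinct junctions for the NesKO, 50188724 for WT at E18, 83110007 for the EmxKO and 83394001 for the P1 library labelled WT. Exon 4 of *Ptbp2*, the floxed exon (chr3:119455862-119456034 in mm9), was skipped in 100% of NesKO junction reads (257 skipping reads, 95% Wilson interval 98.5 to 100%) and in 0.225% at E18 in WT (0.0398 to 1.26%). At P1 it was skipped in 82.6% of the EmxKO reads (79.9 to 85.1%) and in 31.5% of the reads of the library labelled WT (29.5 to 33.7%). The P1 library labelled WT thus carried many *Ptbp2* transcripts without exon 4, which goes against its label, and every P1 difference below is measured against that library. Counted as junction reads per 1e6 (the library's reads on distinct junctions), 7 neuronal markers summed to 2008 in the NesKO and 2379 in WT at E18, and to 2897 and 3020 at P1, in the EmxKO and the library labelled WT. The 5 radial glia markers gave 1083 and 1025 at E18 against 407 and 570 at P1, and the 3 blood markers 4143 and 3106 against 632 and 620, in the same order. The synaptic genes *Snap25* and *Syt1* were lower in the NesKO than in WT (90.2 against 193, and 71.8 against 153), with 64.3 against 127 and 129 against 136 at P1. *Map2*, *Gad1* and *Slc17a7* were also lower in the NesKO (273 against 390, 179 against 217 and 52.5 against 84.6). By contrast, *Stmn2* was higher (376 against 347) and *Tubb3* nearly level (965 against 994). At P1, *Tubb3* and *Slc17a7* were higher in the EmxKO (1526 against 1213 and 79.9 against 74.4). *Map2*, *Stmn2* and *Gad1* were lower there (367 against 635, 655 against 758 and 76.2 against 77). The 3 microglia markers were higher in both mutants (95.4 against 63.9 at E18 and 53.2 against 34.6 at P1), as was the astrocyte gene *Gfap* (65.9 against 23.7, and 28.8 against 12.3). The other astrocyte markers *Slc1a3*, *Aldh1l1* and *Aqp4* were lower in the NesKO (76.6 against 158, 145 against 180 and 6.57 against 10.8). All 4 astrocyte markers summed to 294 against 372 at E18 and to 278 against 254 at P1. The cortical markers *Tbr1* and *Emx1* gave 92.8 and 96.4, and 17.3 and 20.1, at P1, whereas 3 midbrain and hindbrain markers summed to 0.565 and 0.672, with *Hoxb3* at 0 in both. The part of these cell markers in the results below was not tested, and in bulk tissue fewer cells of a type and less RNA per cell cannot be told apart.

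The following microexons carry the main results. Each is printed 5′ to 3′ from the matched GENCODE transcript, with the microexon in capitals between the last and first 12 bases of its neighbors in lower case. The first 7 were higher in both mutants or lower in both, and passed both the 10-point cutoff and the exact test described below at each stage. *Cacna2d2* and *Csnk1g1* were higher in both mutants by 10 points and passed the exact test at 1 stage, and *Cadps2* differed by 10 points at E18 alone.
*Gramd1b* 12 nt: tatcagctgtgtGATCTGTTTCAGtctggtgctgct
*Enah* 12 nt: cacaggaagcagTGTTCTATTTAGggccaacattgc
*Plekha5* 18 nt: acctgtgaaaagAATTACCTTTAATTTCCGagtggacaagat
*Mars* 24 nt: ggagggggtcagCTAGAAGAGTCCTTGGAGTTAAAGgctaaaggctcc
*Kif1a* 24 nt: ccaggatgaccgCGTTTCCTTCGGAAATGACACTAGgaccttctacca
*Tpd52l2* 27 nt: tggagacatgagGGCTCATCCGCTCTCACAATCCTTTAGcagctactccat
*Nckap1* 18 nt: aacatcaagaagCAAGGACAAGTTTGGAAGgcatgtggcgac
*Cacna2d2* 21 nt: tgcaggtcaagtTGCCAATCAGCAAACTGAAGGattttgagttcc
*Csnk1g1* 24 nt: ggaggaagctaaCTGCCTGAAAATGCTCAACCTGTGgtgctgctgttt
*Cadps2* 21 nt: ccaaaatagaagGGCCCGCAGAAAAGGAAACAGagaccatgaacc

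Most microexons kept the reading frame. Of the 354, 295 (83.3%) had a length that is a multiple of 3, compared with 3208 of 6562 longer cassette exons below 300 nt (48.9%). The commonest lengths were 27 nt (58 exons), 24 nt (57), 18 nt (48) and 21 nt (46), and the shortest that passed the read minimum were 6 of 6 nt. In the matched transcripts 286 were coding along their whole length, and of these 256 (89.5%) were multiples of 3. None of the 286 held a stop codon in the annotated frame, which follows from how they were chosen, as exons inside an annotated coding sequence. A further 15 were partly coding, 7 lay in a UTR, 17 lay in a noncoding transcript and 29 matched no annotated exon with both introns. The median upstream intron was 1574 nt and the median downstream intron 1464 nt, beside 1969 and 1966 nt for those longer exons. The 354 exons came from 308 named genes, 37 of which had at least 2 microexons, and 6 pairs overlapped and so share reads.

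**Figure D1:**
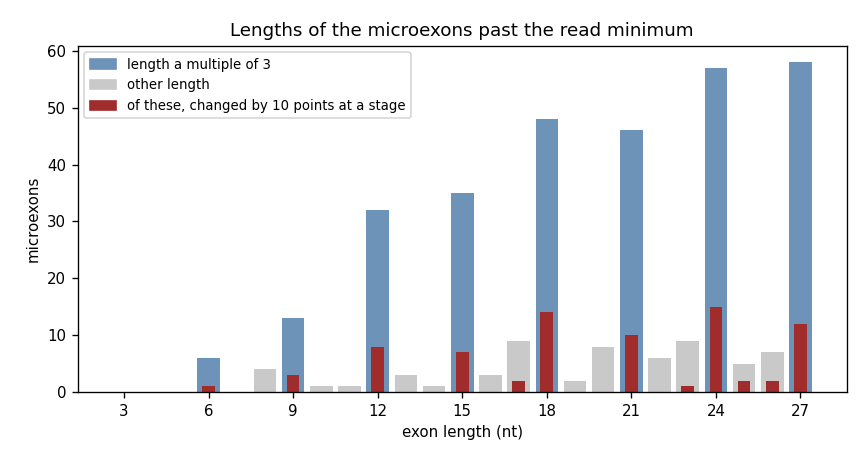
Number of microexons past the read minimum (y axis) by exon length in nt (x axis), with lengths that are multiples of 3 in blue, other lengths in grey, and in red those whose PSI differed by at least 10 points between mutant and control at a stage. The bars at 12, 15, 18, 21, 24 and 27 nt stand above all others, and 57 exons of 24 nt and 58 of 27 nt make up the highest 2.

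The level of inclusion differed widely between microexons. In WT at E18, 92 of 335 had a PSI under 20, 111 had a PSI of 20 to 80 and 132 were over 80, with a median PSI of 66.7. The median over all 6748 cassette exons tested at E18 was 79.3 in the same library. In the P1 library labelled WT the median was 63.7 for 343 microexons and 77.2 for all 6940 cassette exons, and in the mutants the microexon medians were 69.7 (NesKO) and 72.3 (EmxKO). The 4 libraries gave similar values for most exons: the highest and lowest PSI lay within 10 points of each other for 203 of 324 (62.7%). PSI was over 80 in all 4 libraries for 119 microexons (36.7%) and under 20 in all 4 for 80 (24.7%).

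At E18, more microexons had a higher than a lower PSI in the NesKO than in WT brain. PSI was at least 10 points higher for 38 of 335 microexons (11.3%) and at least 10 points lower for 10 (2.99%). Over all 6748 cassette exons of that stage, 10.9% differed by 10 points, 6.98% higher and 3.94% lower. Of the 48 that differed, 18 also passed the exact test on junction reads, 16 higher and 2 lower. These 18 are 5.37% of the 335, compared with 2.77% of all cassette exons past both thresholds. By at least 20 points, 12 were higher (3.58%) and 4 lower (1.19%), and the matching shares over all cassette exons were not calculated. The median difference over all 335 was 0.30 points, and 102 differed by less than 1 point.

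At P1, PSI was at least 10 points higher in the EmxKO for 46 of 343 microexons (13.4%) and lower for 8 (2.33%), against the library labelled WT. The shares over all 6940 cassette exons were 9.42% in either direction, 6.83% higher and 2.59% lower. Both thresholds were passed by 22 (6.41%), of which 20 were higher and 2 lower, beside 3.6% of all cassette exons. By at least 20 points, 11 were higher (3.21%) and 1 lower (0.292%), again with no share calculated over all cassette exons. The single decrease of that size is the 18-nt exon of *Ptprd*, listed at 76.3 and 99.9 with no skipping read in any library, so its value rests on no skipping junction. Among longer cassette exons below 300 nt the share past both thresholds and higher was 1.92% at E18 and 2.74% at P1, compared with 4.78% and 5.83% of microexons. The difference between these shares was not tested.

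Of the microexons of 22 to 27 nt, 20 of 132 differed by 10 points at E18 (15.2%) and 26 of 136 at P1 (19.1%), beside 10.9% and 9.42% of all cassette exons. For 16 to 21 nt the counts were 17 of 112 (15.2%) and 15 of 112 (13.4%). Among exons of 10 to 15 nt, 9 of 70 differed at E18 and 10 of 72 at P1. For those of 3 to 9 nt the counts were 2 of 21 and 3 of 23. All 18 microexons past both thresholds at E18 were multiples of 3, and 19 of 22 were at P1 (86.4%), beside 83.3% of the 354 microexons. Of the 18 and the 22, 15 and 17 were coding along their whole length, beside 80.8% of the 354. The 29 exons past both thresholds at either stage had a median upstream intron of 2236 nt, a median downstream intron of 1096 nt and a median GC content of 44.4%, compared with 46.7% for the microexons with a matched sequence.

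**Figure D2:**
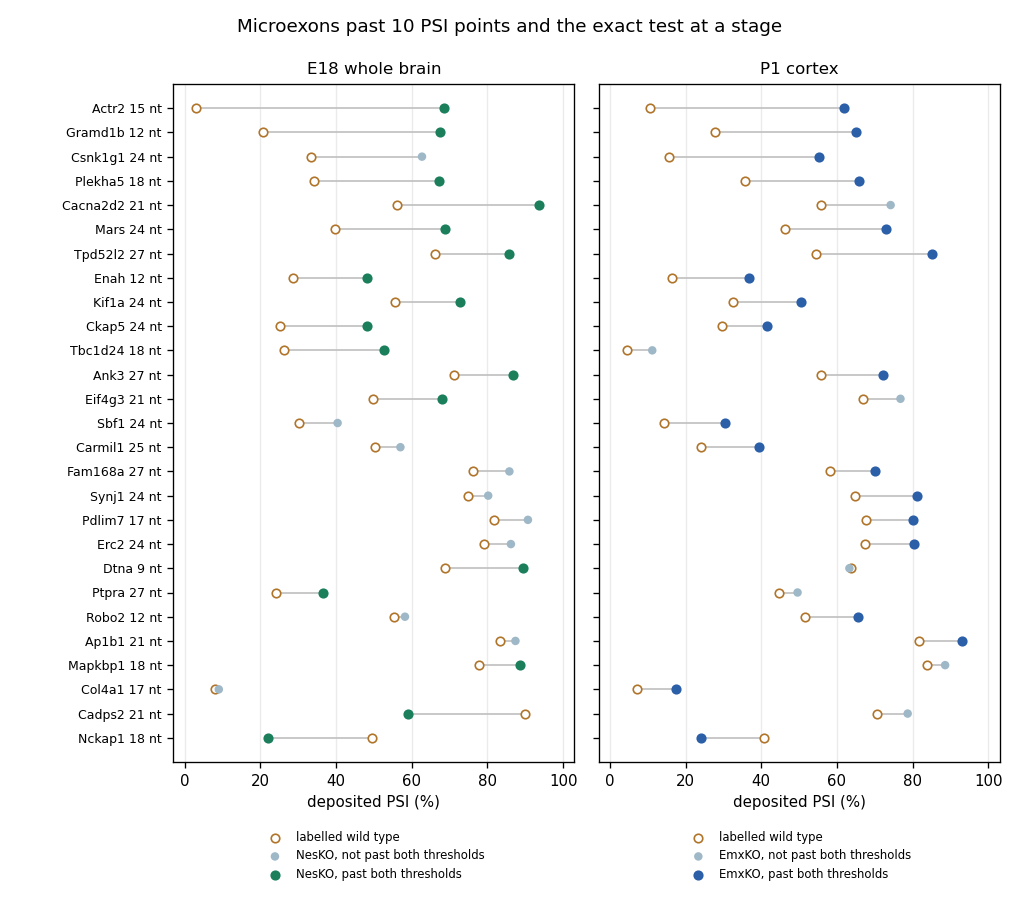
Deposited PSI (x axis, percent) of 27 of the 29 microexons past 10 points and the exact test at a stage (rows), in E18 whole brain (left) and P1 cortex (right). Open circles are the libraries labelled wild type, filled circles the mutants, dark where both thresholds were passed. The lines of *Actr2*, *Gramd1b* and *Csnk1g1* are the 3 uppermost, and *Nckap1* at the bottom is lower in the mutant in both panels.

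*Actr2* had the largest difference of all microexons. It encodes ARP2, a subunit of the Arp2/3 complex that nucleates branched actin, and its 15-nt exon lies at chr11:19998740-19998754 on the minus strand in mm9, inside the gene but matched to no annotated exon. PSI was 68.5 in the NesKO and 3.1 in WT at E18, and 61.9 in the EmxKO and 10.6 in the P1 library labelled WT. Both mutants were therefore far above both controls, with 352 and 885 skipping reads in the mutants and 1898 and 2669 in the controls. Junction PSI from the larger inclusion junction was 70.5 (95% Wilson interval 67.9 to 73.1) in the NesKO, 3.41 (2.69 to 4.31) in WT at E18, 60.1 (58.0 to 62.1) in the EmxKO and 9.71 (8.69 to 10.8) at P1 in the library labelled WT. By Fisher's exact test the adjusted p was 1.87e-236 at E18 and 2.5e-227 at P1.

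The list of cytoskeleton and small GTPase genes held 45 microexons. At E18, 4 of 43 tested were at least 10 points higher and 2 lower, and at P1, 7 of 45 higher and 1 lower, with median differences of 0.4 and 0.3 points beside 0.0 and 0.2 over all cassette exons. Past both thresholds were 2 higher and 1 lower at E18, and 3 higher and 1 lower at P1. For this list and those below, the 10-point shares over all cassette exons were 6.98% higher and 3.94% lower at E18, and 6.83% and 2.59% at P1. Past both thresholds were 2.77% and 3.6% of all cassette exons. The lists are small, and their counts were not tested against these shares. They do not hold every gene of a role, and the cytoskeletal genes *Actr2*, *Carmil1* and *Ckap5* are on none of them. *Enah* encodes an Ena/VASP protein that keeps actin filaments growing at the tips of neurites. Its 12-nt exon (chr1:183861305-183861316, minus strand, exon 4 of 15) had PSI values of 48.2 (NesKO) and 28.5 (WT) at E18, and of 36.7 (EmxKO) and 16.4 (library labelled WT) at P1. It rose by 19.7 points at E18 and by 20.3 at P1 (exact test, adjusted p = 0.00014 and 2.23e-10). *Ank3* encodes ankyrin-G, which organizes the axon initial segment. Its 27-nt exon (chr10:69443572-69443598, plus strand) was at 86.7 and 71.1 at E18 and at 72.3 and 55.8 at P1, mutant first, and rose at both stages (exact test, adjusted p = 0.00669 and 3.51e-05).

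*Nckap1* was the only microexon that fell at both stages by both thresholds. It encodes a subunit of the WAVE complex, which turns on the Arp2/3 complex, and its 18-nt exon (chr2:80411370-80411387, minus strand, exon 2 of 32) stood at 21.9 in the NesKO against 49.4 in WT. At P1 the values were 24.0 in the EmxKO and 40.7 in the library labelled WT. Junction PSI was 21.3 (17.9 to 25.2) and 48.7 (44.9 to 52.5) at E18, and 24.7 (21.6 to 28.1) and 41.2 (38.7 to 43.9) at P1, so that no interval of a mutant reached that of its control. Its adjusted p by the exact test was 1.57e-13 at E18 and 2.67e-07 at P1.

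Channel, receptor and scaffold genes held 15 microexons, of which 2 of 14 tested at E18 were higher and none lower, and 3 of 15 at P1 were higher and 1 lower. Their median difference was 1.8 points at E18 and 0.5 at P1. *Cacna2d2* encodes an alpha2delta subunit that brings voltage-gated calcium channels to the membrane. Its 21-nt exon (chr9:107421510-107421530, plus strand) was at 93.6 in the NesKO and 56.0 in WT, and rose at E18 (exact test, adjusted p = 0.00084). At P1 it was at 74.2 and 55.7, with 36 and 34 skipping reads and an adjusted p of 0.118 in the exact test. The 24-nt exon of the scaffold gene *Shank3* was at 38.4, 40.1, 51.0 and 40.3 in the NesKO, WT, EmxKO and P1 library labelled WT, and did not pass the test at either stage.

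Vesicle traffic and release genes held 44 microexons. At E18, 5 were higher and 2 lower by 10 points, and at P1, 6 were higher and none lower, with medians of 0.5 and 0.8 points. *Kif1a* encodes a kinesin that carries synaptic vesicle precursors down the axon, and it has 3 microexons. The 24-nt exon (chr1:94923409-94923432, minus strand, exon 37 of 48) had the most reads of the exons past both thresholds, with 2149 and 2068 junction reads at E18 and 6054 and 4530 at P1. Its PSI was 72.8 in the NesKO, 55.6 in WT at E18, 50.6 in the EmxKO and 32.5 in the P1 library labelled WT. Junction PSI was 69.8 (67.6 to 71.9), 52.5 (50.1 to 54.8), 50.5 (49.1 to 51.8) and 32.3 (30.9 to 33.8) in the same order. It rose by 17.2 points at E18 and 18.1 at P1 (exact test, adjusted p = 2.04e-20 and 1.2e-49). The 2 log odds ratios were 1.09 and 1.08 on the log2 scale, and their difference was -0.00 with an SE of 0.13. A 27-nt exon listed as exon 37 of 48 in another transcript (chr1:94931123-94931149) had a PSI of 14.6, 13.4, 6.9 and 5.2. The 12 bases on each side of it are the same as beside the 24-nt exon, so these 2 exons may share neighbors and skipping reads. A 27-nt exon near the start of the gene (chr1:94962129-94962155, exon 14 of 49) had 27.4, 23.9, 53.7 and 57.4.

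Of the other release genes, *Synj1*, *Erc2* and *Ap1b1* rose at P1 and were below 10 points at E18. The difference between stages passed its own test for *Ap1b1* and not for *Synj1* or *Erc2*. *Synj1* encodes the phosphatase synaptojanin, which helps strip clathrin from endocytosed vesicles, and its 24-nt exon at chr16:90940718-90940741 reached 81.1 in the EmxKO against 64.8 in the library labelled WT, with 80.2 and 74.9 at E18 (exact test, adjusted p = 1.63e-05 at P1 and 0.68 at E18). That exon was not annotated as coding along its whole length. A second 24-nt *Synj1* exon (chr16:90971809-90971832) had lower values in the mutants, 91.2 against 96.2 and 84.5 against 91.9, and passed 10 points at neither stage. *Erc2*, which encodes a scaffold of the presynaptic active zone, was at 86.2 and 79.2 at E18 and at 80.5 and 67.3 at P1 (24-nt exon, exact test, adjusted p = 0.765 and 0.00118). *Cadps2* encodes a priming factor of dense-core vesicles, and its 21-nt exon (chr6:23331057-23331077, minus strand) fell at E18, from 90.0 in WT to 59.0 in the NesKO. Its values at P1 were 78.7 and 70.6, in the other direction. It had 44 and 83 junction reads at E18, and junction PSI was 58.5 (43.4 to 72.2) in the NesKO and 88.4 (78.8 to 94.01) in WT (exact test, adjusted p = 0.0284 at E18 and 0.98 at P1). The 18-nt exon of its paralog *Cadps* stood at 73.0 in the NesKO and 53.9 in WT, with an adjusted p of 0.075 by the exact test.

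Adhesion and guidance genes held 29 microexons, with 1 of 28 higher and 1 lower at E18 and 1 higher and 2 lower at P1. Median differences were 0.4 and 1.1 points. *Robo2* encodes a receptor for the axon repellent Slit, and its 12-nt exon reached 65.7 in the EmxKO against 51.5 in the library labelled WT, with 58.2 and 55.2 at E18 (exact test, adjusted p = 1.61e-05 at P1 and 1 at E18). The 24-nt exon of the neurexin gene *Nrxn2* was at 64.0, 64.4, 47.4 and 42.6.

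Kinase, phosphatase and signaling genes held 16 microexons, 1 higher and 1 lower of 14 at E18 and 2 higher of 16 at P1. *Csnk1g1*, which encodes a membrane-bound casein kinase 1, has a 24-nt exon (chr9:65882857-65882880, plus strand, exon 12 of 13) with PSI values of 55.2 (EmxKO) and 15.7 (library labelled WT) at P1, a rise of 39.5 points (exact test, adjusted p = 2.78e-11). At E18 the NesKO was at 62.7 and WT at 33.4 with 57 and 79 junction reads, and the adjusted p of the exact test was 0.126. RNA processing and translation genes held 12, of which 1 was higher at E18 and none passed 10 points at P1. *Eif4g3* encodes a scaffold of the cap-binding initiation complex, and its 21-nt exon rose from 49.7 to 67.9 at E18 (exact test, adjusted p = 3.22e-05). At P1 it was at 76.8 and 66.9. Chromatin and transcription genes held 15, of which 1 was higher and 1 lower at E18 and 1 higher at P1, and none passed both thresholds.

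In the 178 microexons of genes on none of the role lists, 23 of 165 were higher and 3 lower at E18, and 26 of 169 higher and 4 lower at P1. Past both thresholds were 10 at each stage, all of these higher. Over all microexons, 11.3% were at least 10 points higher at E18 and 13.4% at P1. *Gramd1b* encodes a protein that moves cholesterol from the plasma membrane to the endoplasmic reticulum. Its 12-nt exon (chr9:40108025-40108036, minus strand, exon 17 of 20) was at 67.5 in the NesKO, 20.8 in WT at E18, 65.1 in the EmxKO and 27.9 in the P1 library labelled WT. Both mutants were more than 30 points above both controls, and junction PSI was 68.3 (64.3 to 72.2), 21.3 (17.9 to 25.2), 66.5 (63.6 to 69.2) and 29.4 (26.7 to 32.4) in that order (exact test, adjusted p = 9.75e-33 at E18 and 1.16e-41 at P1). *Plekha5*, which encodes a phosphoinositide-binding protein, has an 18-nt exon (chr6:140485527-140485544, plus strand) at 67.1 and 34.2 at E18 and at 65.8 and 35.8 at P1 (exact test, adjusted p = 0.00214 and 4.25e-06). *Mars*, the methionyl-tRNA synthetase, has a 24-nt exon (chr10:126733773-126733796, minus strand, exon 20 of 22) at 68.9 and 39.8 at E18 and at 72.9 and 46.4 at P1. *Tpd52l2* has a 27-nt exon (chr2:181245209-181245235, plus strand, exon 6 of 9) at 85.8 and 66.1 at E18 and at 85.1 and 54.4 at P1. Both of these rose at both stages, with adjusted p of 2.42e-06 and 3.58e-05 at E18 and of 2.39e-08 and 2.77e-16 at P1 by the exact test.

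Of the other genes outside the lists with a microexon past both thresholds at a stage, 5 are described here, and 3 with differences of 10.4 to 12.0 points fall outside the rule for named exons. *Ckap5* encodes a microtubule polymerase, and its 24-nt exon, annotated in a noncoding transcript, was at 48.2 and 25.3 at E18 and at 41.6 and 29.6 at P1, past both thresholds at each. *Tbc1d24*, a gene of vesicle traffic linked to epilepsy, has an 18-nt exon that rose from 26.1 to 52.7 at E18 and stood at 11.2 and 4.6 at P1. The 24-nt exon of *Sbf1*, which encodes a myotubularin-related pseudophosphatase, was at 40.4 and 30.1 at E18 and rose from 14.4 to 30.4 at P1. The 25-nt exon of *Carmil1*, a regulator of actin capping, is annotated as partly coding. It was at 57.0 and 50.4 at E18 and rose from 24.0 to 39.3 at P1. The 27-nt exon of *Ptpra*, a receptor tyrosine phosphatase, rose from 24.1 to 36.5 at E18 and stood at 49.6 and 44.6 at P1.

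Microexons that were higher in 1 mutant were often higher in the other. Of 37 microexons at least 10 points higher in the NesKO and tested at P1, 21 (56.8%) were at least 10 points higher in the EmxKO, and these were 53.8% of the 39 P1 increases tested at E18. *Nckap1* alone was lower by 10 points at both stages. In all, 22 of 324 (6.79%) differed by 10 points in the same direction at both stages, compared with 2.95% of 6474 cassette exons. Both thresholds were passed at both stages by 11, which is 61.1% of the 18 at E18 and 50% of the 22 at P1. The matching shares of shared increases among all cassette exons were not calculated. Across the 324 exons Pearson's r of the 2 differences was 0.64 and Spearman's rho 0.40, with no library shared between them, and exons are not independent replicates. Over all 6474 cassette exons Pearson's r was 0.39. Opposite differences of 10 points were found for 3 exons, in *Arntl*, *Map3k5* and *Myo6*, which were named after their values had been seen and passed the exact test at neither stage.

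**Figure D3:**
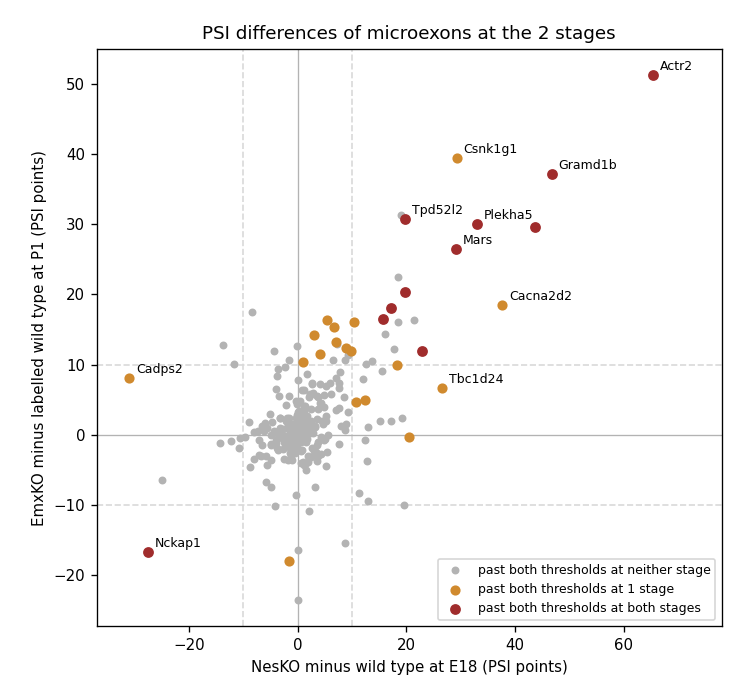
Each point is 1 of 324 microexons, with the PSI difference NesKO minus wild type at E18 (x axis, points) against EmxKO minus the library labelled wild type at P1 (y axis, points), and dashed lines at 10 points. The 11 exons past both thresholds at both stages (dark red) lie in the upper right, except *Nckap1* in the lower left.

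The 2 comparisons were also set against each other by a Wald chi-square test on the difference of their log odds ratios. Of 324 microexons, 7 (2.16%) had an adjusted p below 0.05, compared with 1.44% of 6474 cassette exons. *Actr2* differed most, with a log2 odds ratio of 6.05 at E18 and 3.77 at P1, a difference of -2.27 with an SE of 0.29 (Wald chi-square test, adjusted p = 6.41e-12). The 9-nt exon of *Dtna*, which encodes a dystrobrevin of the dystrophin complex, was at 89.4 in the NesKO and 68.9 in WT but at 63.3 and 63.7 at P1 (difference of log2 odds ratios -1.87, SE 0.48). This *Dtna* exon was not annotated as coding along its whole length. The 21-nt exon of *Ap1b1*, which encodes an adaptor subunit of clathrin coats at the Golgi, was at 87.4 and 83.4 at E18 and rose from 81.6 to 93.1 at P1 (difference 1.32, SE 0.36). The 15-nt exon of *Itsn1*, which lies in the first SH3 domain of the endocytic scaffold intersectin, was at 30.3 and 34.2 at E18 and at 18.8 and 10.4 at P1 (difference 1.17, SE 0.32). The Wald adjusted p was 0.00806 for *Dtna*, 0.0191 for *Ap1b1* and 0.0157 for *Itsn1*. A shorter *Itsn1* exon ends at the same base and shares reads with the one of 15 nt. The remaining 3, in *Atp6v0a1*, *Kif1a* and *Hnrnpc*, differed by less than 10 points at each stage.

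By the 10-point cutoff alone, microexons of genes chosen as known carriers of neuronal microexons differed about as often as cassette exons in general. Of 51 microexons in 41 of these genes, 4 of 50 tested at E18 were at least 10 points higher and 1 lower, and 4 of 51 at P1 were higher and 2 lower, beside 10.9% and 9.42% of all cassette exons in either direction. Past both thresholds were 3 of 50 at E18, all higher, and 4 higher and 1 lower of 51 at P1. The shares over all cassette exons were 2.77% and 3.6%, and the small counts were not tested against them. Median differences were 0.3 and 0.5 points, and 32 of 50 (64%) differed by less than 5 points at both stages. PSI was over 80 in all 4 libraries for 21 of 50 and under 20 in all 4 for 8. Many of the best-known microexons stood at a similar level in all 4 libraries. The neuronal 18-nt exon of the kinase *Src*, which lengthens a loop of its SH3 domain, was at 77.2 (WT, E18) to 82.7 (EmxKO), with 77.3 in the P1 library labelled WT. The 24-nt exons of the transcription factors *Mef2a* and *Mef2c* and the 21-nt exon of *Mef2d* were at 77.9, 76.3, 86.3 and 83.6, at 96.9, 97.2, 99.4 and 99.6, and at 89.2, 85.9, 91.9 and 94.4. The 24-nt exon of *Cpeb4*, a regulator of polyadenylation and translation, was at 87.4, 82.5, 89.5 and 83.9, on 41 to 217 junction reads.

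Among the adhesion genes of that list, the receptor phosphatase *Ptprs* had a 12-nt exon at 99.2 to 99.9 and a 27-nt exon at 79.8 to 85.9, and the 27-nt exon of *Ptprf* was at 68.5, 68.1, 88.8 and 89.3. The 18-nt exon of *Nfasc*, which encodes neurofascin, was at 93.2 to 97.1. *Nrcam* had an 18-nt exon at 65.5, 53.5, 52.5 and 44.5 and a 12-nt exon at 7.1, 11.4, 5.2 and 4.7, and the 27-nt exon of *Nrxn3* was at 14.7, 9.4, 6.0 and 8.5. *Agrn*, which encodes the synapse organizer agrin, had a 24-nt exon at 12.1, 8.1, 16.5 and 9.3. That exon differed by 7.2 points at P1, under the cutoff, with an adjusted p of 8.71e-05 in the exact test.

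The traffic genes of the list ranged from near full inclusion to almost none. The 15-nt exon of *Snap91*, an assembly factor of clathrin coats, was at 98.3 to 99.7. The 9-nt exons of *Ap1s2*, *Asap1* and *Asap2* were at 91.3 to 95.2, at 84.7 to 93.4 and at 77.8 to 87.0. *Vti1a* and *Trappc9* were at 79.9 to 87.7 and at 66.6 to 71.2, *Cask* at 80.9 to 86.0, and the 18-nt exon of *Kif1b* at 87.5 to 90.7, while its 27-nt exon was at 1.4 to 4.1. The 12-nt exon of *Dnm2*, which encodes the ubiquitous dynamin, was at 56.0 in the NesKO and 70.3 in WT, and at 44.5 and 45.7 at P1, and passed the exact test at neither stage. Of the cytoskeletal genes, *Clasp1* had microexons at 93.5 to 97.5, 91.9 to 95.0 and 56.8 to 67.4, and *Clasp2* had 1 at 90.0 to 98.1 and 1 at 0.3 to 0.9. *Abi1* and *Ank2* were over 91 in all libraries, *Dock9* was at 83.9 to 92.7, and the 2 exons of *Vav2* were at 89.6 to 93.8 and at 84.8 to 93.9. For the calcium channel *Cacna1b* a 12-nt exon was at 69.8 to 83.6 and a 6-nt exon at 1.2 to 2.8. *Cacna2d1* was at 98.6 to 99.9, *Eif4g1* at 84.0 to 88.4, and *Zmynd8* at 49.9, 51.3, 74.1 and 73.4. The 27-nt exon of *Git1* is listed at 0 in all libraries although it has inclusion reads and no skipping read, so its value gives no level.

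**Figure D4:**
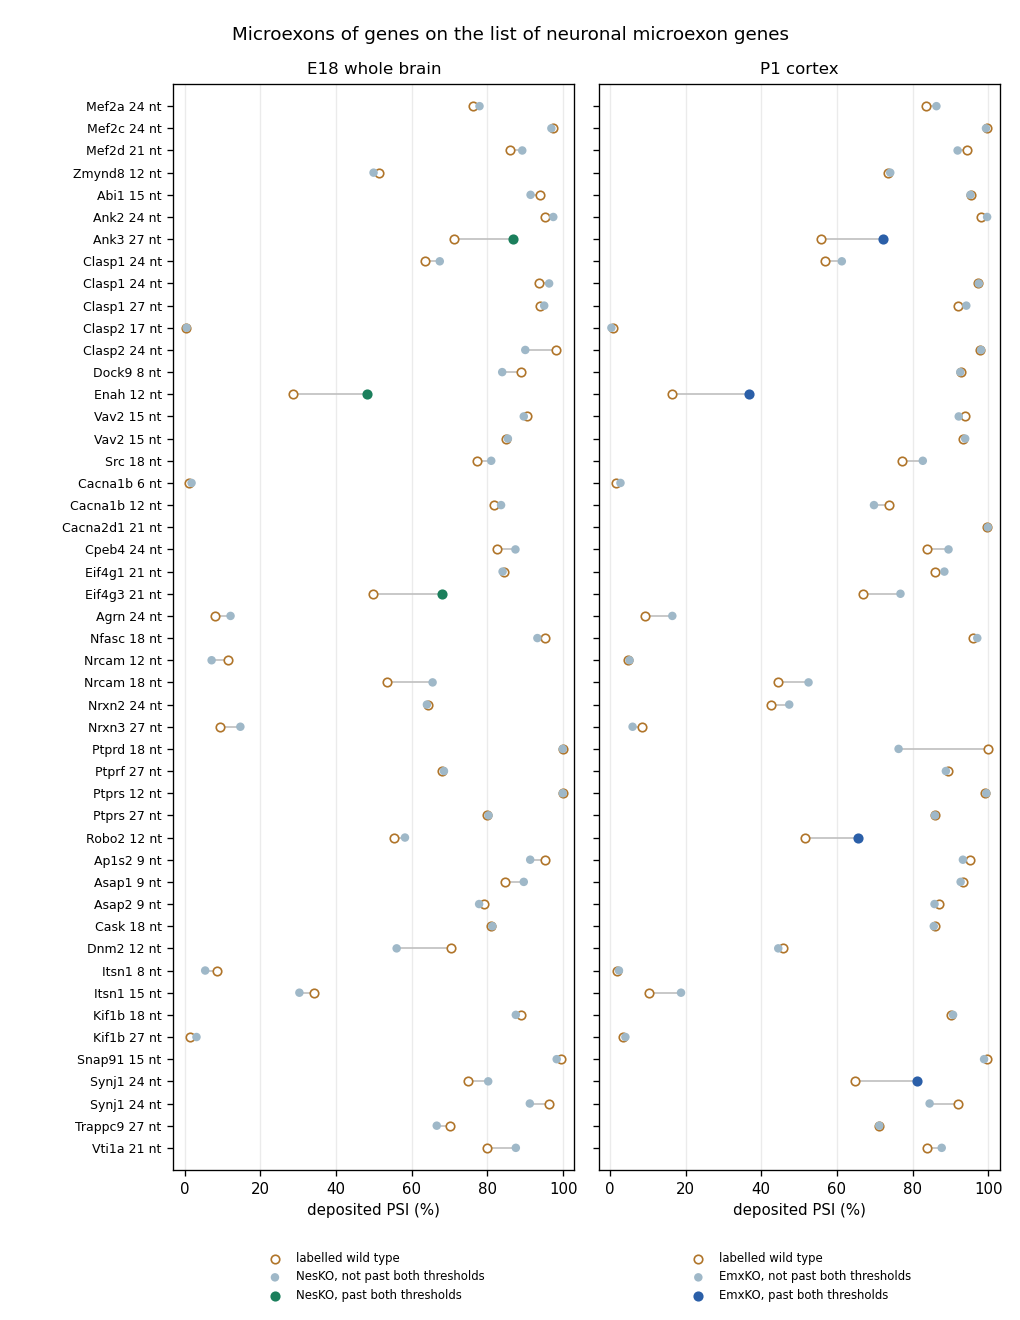
Deposited PSI (x axis, percent) of 48 microexons in genes listed as carriers of neuronal microexons (rows), at E18 (left) and P1 (right), drawn as open circles for the libraries labelled wild type and filled circles for the mutants, dark where both thresholds were passed; the *Git1* exon is among those left out. Most pairs of circles lie close together, and the dark circles are *Ank3* and *Enah* in both panels, *Eif4g3* at E18, and *Robo2* and *Synj1* at P1.

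Between the 2 libraries labelled WT, 67 of 333 microexons (20.1%) differed by at least 10 points, 30 higher at P1 (9.01%) and 37 lower (11.1%). Over all 6726 cassette exons 20.9% differed, 9.04% higher and 11.8% lower. Of the 333 microexons, 41 (12.3%) also passed the exact test, and the matching share of all cassette exons was not calculated. The largest increases at P1 were in *Stk3* (21 nt, 33.2 at E18 and 75.2 at P1), the 27-nt exon of *Kif1a* (23.9 and 57.4), the 18-nt exon of *Carmil1* (60.4 and 86.7), the 18-nt exon of *Cadps* (53.9 and 80.2) and *Ptprk* (12 nt, 58.2 and 84.3). *Kif1a* had 3670 and 4254 junction reads, the most of these, and the mutants at the same stages stood at 27.4 and 53.7. The largest decreases were in the 24-nt exon of *Rapgef6* (51.2 and 11.5), *Tead1* (12 nt, 65.5 and 32.9), *Unc5d* (15 nt, 50.5 at E18, with a difference of -31.5 points), *Inpp4a* (15 nt, 49.9 and 22.5, overlapping an exon of 18 nt) and *Myo6* (27 nt, 65.8 and 38.4). Of these 10, *Tead1* and *Unc5d* did not pass the exact test. The 24-nt exon of *Kif1a* was lower at P1 (32.5 against 55.6), so the 2 *Kif1a* microexons differed between the control libraries in opposite directions.

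Some microexons of paralogs were alike in sequence. Of all pairs of equal length, 9 were identical at 80% of bases or more, and all 9 joined members of 1 gene family. The 21-nt exons of *Tenm3* and *Tenm4*, which encode teneurins, large adhesion proteins of axons, had 20 of 21 bases in common. The pair is shown for comparison with its values.
*Tenm3* 21 nt: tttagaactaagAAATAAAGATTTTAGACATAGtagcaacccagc
*Tenm4* 21 nt: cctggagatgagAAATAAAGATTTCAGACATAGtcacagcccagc
*Tenm3* was at 84.8 in the NesKO, 88.6 in WT, 96.3 in the EmxKO and 95.9 in the P1 library labelled WT, and *Tenm4* at 90.7, 89.9, 98.6 and 96.2. By contrast, the 18-nt exons of *Dst* and *Macf1*, which encode giant linkers of actin and microtubules, shared 16 of 18 bases and stood at 12.9, 15.2, 6.4 and 7.8 and at 84.5, 90.7, 91.9 and 91.4.

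Reads across very short exons were listed unevenly in the tables. In exons of 3 to 9 nt, 95.7 to 96.8% of inclusion reads stood on the junction with the lower coordinates, compared with 50.6 to 51.2% in the longest exons plotted, of up to 300 nt. The mean of both inclusion junctions gave a median PSI 6.4 points below the deposited PSI for exons of 3 to 9 nt at E18 in WT, and the larger of the 2 gave 0.2 points below. The exact tests above use the mean and so fewer inclusion reads. With the larger junction, 20 microexons passed both thresholds at E18 and 26 at P1.

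**Figure D5:**
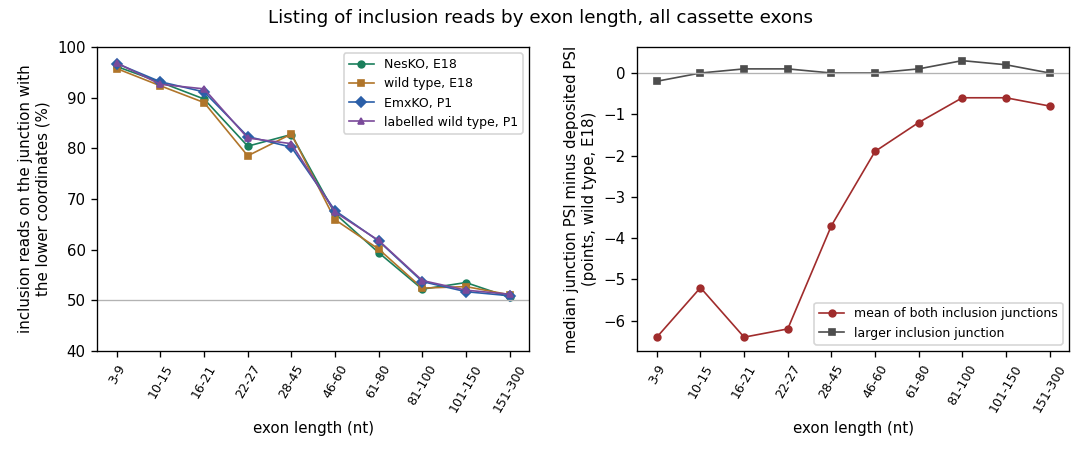
Left, percent of inclusion junction reads listed on the junction with the lower coordinates (y axis) by exon length in nt (x axis) for the 4 libraries, over all cassette exons, with a line at 50%. Right, median junction PSI minus deposited PSI in points (wild type, E18) with the mean of both inclusion junctions and with the larger one; the first falls to -6.4 points in the shortest exons and the second stays within 0.3 points.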

How the data were processed

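RNAseq of polyA+ RNA was analysed from 4 libraries, with 1 library in each group. The authors aligned read pairs against trios of neighboring exons using SpliceTrap, whose version is not given in the sources used here, and deposited 1 table per library. The submitters' processing notes also name CASAVA, TopHat and Cufflinks, and the build mm9. The tables give the authors' inclusion ratio, a fraction, as deposited both with and without SpliceTrap's adjustment. They also give unnormalized read counts that the authors deposited for the upstream, downstream and skipping junctions. The coverage that the authors computed for each exon is a signal that was not used.

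PSI here is the adjusted ratio times 100. Trios labelled CA-CA with a middle exon of 3 to 27 nt were kept, and each exon was represented by its trio with most reads. At least 20 junction reads were required in both libraries of a stage. Members, gene lists and tests were chosen with earlier results of these data known, and the lists support no test. Fisher's exact test (two-sided) was run between libraries on the rounded mean of the 2 inclusion junctions against the skipping junction, with Benjamini-Hochberg adjustment over all cassette exons tested in the comparison. An exon was past both thresholds at a difference of 10 PSI points, an adjusted p below 0.05 and the same direction by junction reads. The difference between stages was a Wald chi-square test of the 2 log odds ratios, with 0.5 added to each count. These tests compare libraries, and not genotypes, and no spread between animals is known. Junction PSI and its 95% Wilson interval use the larger inclusion junction, a choice made after seeing the data, and cover counting error only. The skipping of *Ptbp2* exon 4 uses the mean of its inclusion junctions.

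Named exons are, at each stage, the 15 largest increases and the 10 largest decreases past both thresholds, every microexon of the listed neuronal microexon genes, the exons with the lowest adjusted p for a difference between stages, and the 5 largest differences between the libraries labelled wild type in each direction. Exons were named by exon and intron lengths matched to GENCODE mouse release 21 on the same chromosome and strand, and no coordinates were converted. Some named exons are not reported here, but stay in the counts. Sequences are from the GENCODE transcript with those lengths. Alternatives changed the read minimum, the ratio, the trio, the cutoff and the inclusion junctions. The calculations were tested on simulated data and used Python 3.11.15, numpy 2.4.6, pandas 2.3.3, scipy 1.17.1 and matplotlib 3.10.9.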

Additional observations from a re-analysis of the deposited data

Results flagged for a closer look

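The response of 7 microexons differed between the 2 comparisons by the Wald chi-square test on log odds ratios, which compares 4 libraries and not genotypes. The adjusted p was 6.41e-12 for *Actr2* (15 nt), which was higher in both mutants. It was 0.00232 for *Atp6v0a1* (18 nt, a proton pump subunit), with a PSI of 94.4 in the NesKO, 96.1 in WT, 96.2 in the EmxKO and 93.8 in the P1 library labelled WT. It was 0.00806 for *Dtna* (9 nt) and 0.013 for the 27-nt exon of *Kif1a* (27.4, 23.9, 53.7 and 57.4). It was 0.0156 for *Hnrnpc* (26 nt, in a UTR; 64.9, 72.1, 49.1 and 49.9), 0.0157 for *Itsn1* (15 nt) and 0.0191 for *Ap1b1* (21 nt). An unadjusted p below 0.05 was found for 34 of 324. Stage, tissue, Cre line and library protocol cannot be told apart in these differences, and the P1 control library skipped *Ptbp2* exon 4 in 31.5% of reads.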

How the results depend on the processing

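Counts of microexons depended on the cutoff. At 10 points, 48 differed at E18 (38 higher), 54 at P1 (46 higher) and 22 in the same direction at both stages. At 20 points, 16 differed at E18 (12 higher), 12 at P1 (11 higher) and 6 in the same direction at both stages. With 10 points and the exact test, 18 differed at E18 (16 higher), 22 at P1 (20 higher) and 11 at both. Minimums of 10 and 50 reads, the unadjusted ratio, junction PSI from the mean or the larger inclusion junction, the trio with the most skipping reads, and only trios with both kinds of reads kept each of the 10-point counts within 1.5 times. The 50-read minimum gave the lowest E18 count, 32 of 279 (27 higher) against 48 of 335, and 44 of 312 at P1 (38 higher). The shares of all cassette exons at that minimum were not calculated. With the lower of the 2 inclusion junctions 0 microexons differed between the stages by the Wald chi-square test, since few reads of a short exon are listed on that junction, and the larger gave 8. Of 199 alternative values of the 40 exon and stage results past both thresholds, none changed direction and 2 lost a threshold, both with the mean of the inclusion junctions (*Ptpra* at E18, 9.8 points, and *Col4a1* at P1, 6.8 points, named after its values were seen). The 50-read minimum cannot change a PSI, and the trio with the most skipping reads gave the main values again, so these 2 settings say little. *Cadps2* at E18, with 44 junction reads in the NesKO, fell below the 50-read minimum and is not counted there. No paired analysis was possible because each group has 1 library. Precision is limited by 1 library per group, and for many exons by under 100 junction reads.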
